A study of Mus musculus with 2 samples.

Results

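Smooth muscle contractile genes were followed in prostaspheres, the spheres that prostate epithelial cells form in Matrigel, with and without Sox9. The set holds 10 genes: the actins Acta2 and Actg2, the myosin chains Myh11 and Myl9, the kinase Mylk, and the actin-associated proteins Tagln, Cnn1, Smtn, Lmod1 and Synpo2. They were taken by gene name from the annotation of the arrays, which gave 19 of 41174 probes that are not controls. Of these, 17 probes passed the filter on dim signal, and each of the 10 genes kept at least 1 probe, among 15063 genes tested in all. RNA was hybridized to 2 Agilent whole mouse arrays of 1 slide, each with 1 RNA in Cy5 and 1 in Cy3.

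All cells came, by the deposited labels, from urogenital sinus epithelium (UGE) of mouse embryos at 16 dpc on a C57/Bl6J background, whereas the study's methods start this assay from adult prostate. Spheres were kept for 6 days in Matrigel with dihydrotestosterone and then for 6 days with 5 µM tamoxifen (TAM) or with vehicle. In the genotype comparison, Cy5 marked wild-type cells given TAM and Cy3 marked ER-Sox9flox/flox cells given TAM. In the treatment comparison, Cy5 marked ER-Sox9flox/flox cells given vehicle and Cy3 again marked ER-Sox9flox/flox cells given TAM. The floxed line carries a ubiquitous Cre recombinase that TAM activates, so deletion was not restricted to 1 cell type. Wild-type and floxed RNA therefore differed in the mouse line as well, and vehicle and TAM RNA differed in exposure to TAM. The labels number the 4 RNAs separately and do not say whether they came from separate cultures or how many embryos were pooled, so the spread between arrays may be partly technical.

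Smooth muscle cells contract when myosin II pulls on actin filaments. Calcium and calmodulin activate myosin light chain kinase (Mylk), which phosphorylates the regulatory light chain (Myl9), and the heavy chain (Myh11) then cycles on filaments of smooth muscle actin. Many of these genes are driven by serum response factor (Srf) with myocardin-family coactivators at a promoter element called the CArG box. In the prostate the set marks the smooth muscle of the stroma that surrounds the ducts, while several members, Acta2 among them, are also used by myofibroblasts and myoepithelial cells.

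Because this element is known from several of these promoters, the start regions of the genes were read from RefSeq (GRCm38.p6) for the 7 members with an entry, Acta2, Cnn1, Lmod1, Myl9, Mylk, Smtn and Synpo2. Each window ran from 250 bases before to 50 bases after the annotated start. The CArG box (CC, a core of 6 bases that are each A or T, then GG) reads the same way on both strands, so 1 search covers both. An exact box was found in 1 member window, that of Myl9, and in 1.63% of all 32851 windows. With up to 1 G or C allowed in the core, 2 of the 7 windows held a box, those of Myl9 and Acta2, against 9.98% of all windows. The stretches of these promoters that hold the boxes are shown with the boxes in capitals, both written 5′ to 3′ on the strand of the gene, Acta2 from chr19:34255383-34255472 (minus strand) and Myl9 from chr2:156775288-156775389 (plus strand).
Acta2: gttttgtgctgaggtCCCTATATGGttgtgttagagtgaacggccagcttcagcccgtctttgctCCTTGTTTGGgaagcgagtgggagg
Myl9: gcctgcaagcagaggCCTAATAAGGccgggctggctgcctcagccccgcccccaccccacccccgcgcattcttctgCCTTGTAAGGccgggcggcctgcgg
The boxes of Acta2 began 84 and 34 bases before the start, each with 1 G or C in the core. Those of Myl9 began 161 bases before the start, with an exact core, and 99 bases before it, with 1 G in the core. A match of letters is a description of the sequence only.

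Log2 ratios put the Sox9-expressing RNA (Cy5) over the Sox9-deleted RNA (Cy3) of an array, once background had been corrected and loess applied to each array. The brightest tested probe stood for a gene. Its mean over the 2 arrays (n = 2) was compared with 0 by limma, and p-values were adjusted by Benjamini-Hochberg across all 22731 tested probes. Brightness is given in arbitrary units after normalization between arrays, includes a constant of 50, and is compared between RNAs for the same probe or the same set of probes, never between probes. Background lies above this constant. The brightest probe of Ptprc, an immune marker not well above background in any RNA, read 90.3 to 93.1. A sum over a set is led by its brightest probes and holds the constant and such background once for each gene. In bulk RNA, fewer cells of a type and less RNA per cell cannot be told apart. The dyes were not swapped, so dye bias of a probe and a difference between the RNAs cannot be told apart. Sox9 itself was higher with Sox9 on each array by 2 of its 3 probes, with mean log2 ratios of 2.53 ± 0.23 and 1.22 ± 0.07 (SD, n = 2). The remaining Sox9 probe had a mean of -1.11 ± 0.16 and did not stand well above background in the wild type. Between 53.9% and 56.2% of all probes were well above background in each RNA, and the brightest probe of each member was so in all 4 RNAs.

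The contractile genes did not share a direction between the 2 comparisons. In the treatment comparison all 10 had a log2 ratio above 0, from 0.24 for Tagln to 1.54 for Cnn1 with a median of 0.70, where the median of all genes was 0.01. In the genotype comparison 8 of the 10 were below 0, with a median of -0.29 and a range from -0.72 for Myl9 to 0.68 for Smtn. Thus 8 members, Acta2, Actg2, Lmod1, Myh11, Myl9, Mylk, Synpo2 and Tagln, were lower in the genotype and higher in the treatment comparison, which 18.4% of all genes were. The opposite pattern was seen in 0 members and 14.0% of all genes. Cnn1 and Smtn had ratios above 0 on each array, as had 33.8% of all genes, and 0 members were lower on both, against 33.8% of all genes.

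**Figure D1:**
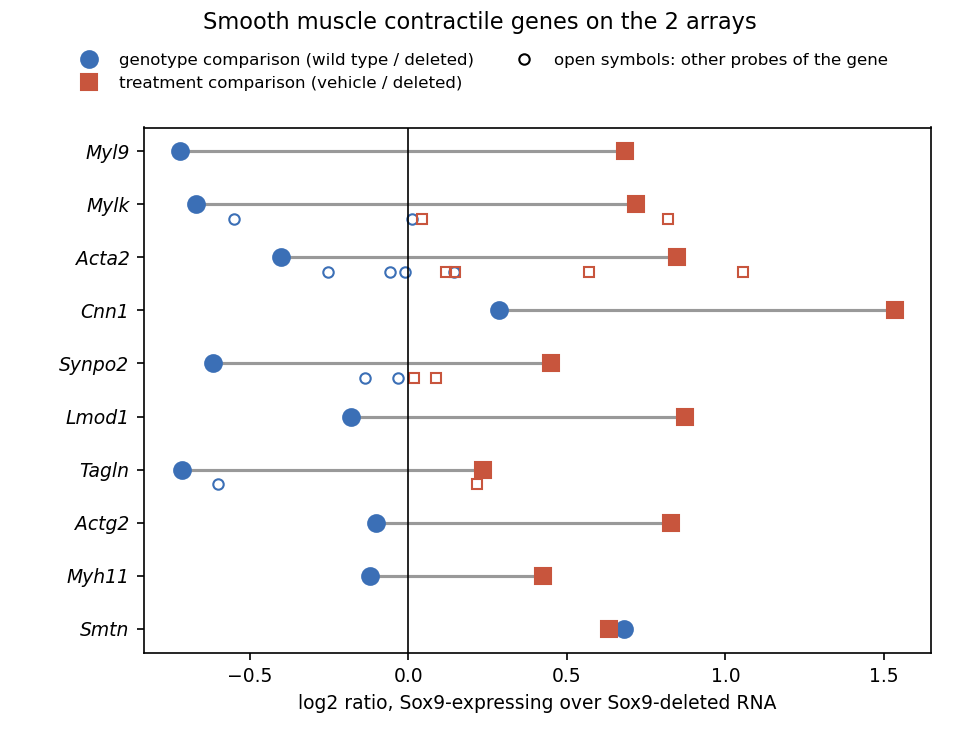
Log2 ratio of Sox9-expressing over Sox9-deleted RNA (x axis) for each contractile gene (y axis), in the genotype comparison (blue circles) and the treatment comparison (red squares), 1 array each. Filled symbols are the brightest probe and open symbols the other probes of the gene. The 2 symbols of Smtn lie together near 0.68 and 0.63, and those of Myl9 lie farthest apart, at -0.72 and 0.68.

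Over both arrays 0 members passed the limma test at an adjusted p under 0.05, a threshold that 0.0133% of all genes passed. At an unadjusted p under 0.05, 1 member (Smtn) was called, against 19.5% of all genes. No member was at least 2-fold different in the same direction on both arrays, a rule met by 0.538% of all genes. The median of the members' mean log2 ratios was 0.19, beside 0.003 for all genes, and for 8 of the 10 the mean was smaller than the SD of the arrays.

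For each member but Smtn the arrays lay farther apart than their mean lay from 0. The log2 ratio of the treatment comparison minus that of the genotype comparison had a median of 1.06 over the 10 members (range -0.05 to 1.40) and of 0.007 over all genes, of which the middle 90% lay between -0.32 and 0.63. It was at least 1 for 6 members, Acta2, Cnn1, Lmod1, Myl9, Mylk and Synpo2, and for 2.17% of all genes. With all tested probes of a gene averaged, it was at least 1 for 4 members and 1.93% of all genes. It then fell to 0.79 for Acta2 and 0.45 for Synpo2. Each comparison is 1 array, so this difference could not be tested. The added constant understates it for dim probes: with a constant of 10 in place of 50 it was 1.09 in place of 0.93 for Actg2, 1.31 in place of 1.05 for Lmod1, 0.77 in place of 0.55 for Myh11 and 1.22 in place of 1.07 for Synpo2.

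The thin filament carries the actins. Acta2, smooth muscle alpha-actin, had a brightness of 5463 in wild-type RNA, 7218 and 8133 in the Sox9-deleted RNAs of the genotype and treatment arrays, and 14642 in vehicle-treated floxed RNA (brightest probe, chromosome 19, 34316060 to 34316119 in the coordinates of the array annotation, for which the files name no build, as for every probe position given). Its lowest value was thus in wild-type cells and its highest in vehicle-treated floxed cells, with both Sox9-deleted RNAs between. The log2 ratios were -0.40 and 0.85. Their mean was 0.22 ± 0.88 (SD, n = 2), with an adjusted p of 0.752 by limma. This probe was printed in 10 spots on each array, and its log2 ratio varied between spots by an SD of 0.018 and 0.041, far less than between the arrays.

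Acta2 has 4 other probes. One, with log2 ratios of -0.25 and 1.05, went the same way as the brightest probe. Another was near 0 in the genotype comparison (-0.01) and at 0.15 in the treatment comparison, and one that was too dim to be tested had -0.06 and 0.12. The probe A_51_P450957 differed in sign in the genotype comparison, with 0.14 there and 0.57 in the treatment comparison. Its brightness was 5178 in wild-type, 4689 and 4571 in Sox9-deleted and 6789 in vehicle-treated RNA. Unlike the other Acta2 probes, whose positions cover no more than 60 bases, it spans 3255 bases of the genome (chromosome 19, 34322995 to 34326249), so it lies across an exon junction. Its sequence is shown because it is the Acta2 probe that disagrees.
A_51_P450957: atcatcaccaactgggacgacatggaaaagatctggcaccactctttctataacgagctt
The letters belong to the coding part of the gene, which is closely similar among the actins, and whether RNA of other actins bound this probe was not tested.

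Actg2, smooth muscle gamma-actin, had a brightness of 211 in wild-type RNA, 227 and 233 in the Sox9-deleted RNAs and 413 in vehicle-treated RNA (chromosome 6, 83472853 to 83473179). Wild-type and Sox9-deleted RNA were close to each other and vehicle-treated RNA stood above them. The log2 ratios were -0.10 and 0.83, a mean of 0.36 ± 0.66 (limma adjusted p = 0.505).

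Lmod1, leiomodin 1, which nucleates actin filaments, was at 145 in wild-type RNA, 164 and 185 in the Sox9-deleted RNAs and 338 in vehicle-treated RNA (chromosome 1, 137263311 to 137263369). Its log2 ratios of -0.18 and 0.87 gave a mean of 0.35 ± 0.74 (limma adjusted p = 0.564). Its order over the 4 RNAs was that of Actg2.

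Among the thick filament genes, Myh11, the smooth muscle myosin heavy chain and the most restricted marker of the lineage, was dim. Its brightness was 131 in wild-type RNA, 142 in each Sox9-deleted RNA and 190 in vehicle-treated RNA (chromosome 16, 14195223 to 14198147). The log2 ratios were -0.12 and 0.43, a mean of 0.15 ± 0.39 (limma adjusted p = 0.650), so the difference between the arrays, 0.55, was the smallest of the 9 members above 0.

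Myl9, the regulatory light chain, differed most between the arrays. Its brightness was 1641 in wild-type RNA, 2703 and 3108 in the Sox9-deleted RNAs and 4994 in vehicle-treated RNA, 3.04 times the wild-type value (chromosome 2, 156607301 to 156607360). The log2 ratios of -0.72 and 0.68 gave a mean of -0.02 ± 0.99 (limma adjusted p = 0.983), and this mean turned to 0.34 with median centring in place of loess.

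Mylk, the kinase that acts on Myl9, was at 691 in wild-type RNA, 1099 and 1004 in the Sox9-deleted RNAs and 1651 in vehicle-treated RNA (chromosome 16, 34995162 to 34995221). The log2 ratios were -0.67 and 0.72, a mean of 0.02 ± 0.98 (limma adjusted p = 0.978), and a mean this close to 0 was below 0 under 4 other ways of processing, down to -0.20 with the arrays scaled to 1 spread. A second probe gave -0.55 and 0.82. The third Mylk probe, which was not tested, gave 0.01 and 0.04.

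Of the proteins that bind the filaments, Tagln (transgelin, or SM22-alpha) was at 6942 in wild-type RNA, 11381 and 13169 in the Sox9-deleted RNAs and 15520 in vehicle-treated RNA (chromosome 9, 45738097 to 45738156). Here the Sox9-deleted RNAs lay nearer to vehicle-treated than to wild-type RNA. The log2 ratios of -0.71 and 0.24 gave a mean of -0.24 ± 0.67 (limma adjusted p = 0.660), which turned to 0.22 with median centring, and the second probe agreed at -0.60 and 0.22.

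Cnn1, calponin 1, which binds actin and restrains the myosin ATPase, had the highest ratio of the set in the treatment comparison. Its brightness was 565 in wild-type RNA, 463 and 437 in the Sox9-deleted RNAs and 1269 in vehicle-treated RNA (chromosome 9, 21913058 to 21913117), so both Sox9-deleted values were the lowest. It was 2.90-fold higher in the treatment comparison and the only member at least 2-fold higher there, as 1.74% of all genes were. In the genotype comparison its log2 ratio was 0.29, and 0 members were at least 2-fold lower in that comparison, against 1.08% of all genes. The mean over both arrays was 0.91 ± 0.88 (SD, n = 2, limma adjusted p = 0.291), and with median centring it was 1.19 with an adjusted p of 0.00146 by limma. Over the other alternatives its adjusted limma p reached 0.371, and the methods' t-test gave 0.690 after Benjamini-Hochberg.

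Smtn, smoothelin, a cytoskeletal protein of contractile smooth muscle, was the member with the same value on both arrays. It had a brightness of 1154 in wild-type RNA and 1050 in vehicle-treated RNA, both above the 720 and 677 of the Sox9-deleted RNAs (chromosome 11, 3420834 to 3420893). The log2 ratios were 0.68 and 0.63, a mean of 0.66 ± 0.03 (SD, n = 2), which is larger than the spread between arrays. The limma p was 0.00111 before and 0.108 after adjustment, and the adjusted limma p was 0.0284 with median centring, the lowest over the alternatives, and up to 0.298 under the others. The methods' t-test gave 0.584 after Benjamini-Hochberg.

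Synpo2, synaptopodin 2 (myopodin), an actin-bundling protein, was at 200.0 in wild-type RNA, 306 and 311 in the Sox9-deleted RNAs and 425 in vehicle-treated RNA (chromosome 3, 122813970 to 122814029). The log2 ratios of -0.61 and 0.45 gave a mean of -0.08 ± 0.75 (limma adjusted p = 0.900), which turned to 0.16 with median centring. The other Synpo2 probes were dim, without a clear signal in wild-type RNA, and closer to 0, at -0.14 and 0.02 for one and -0.03 and 0.09 for the other. A probe under the name 2310068J10Rik, an older name of Synpo2, was at background in all 4 RNAs and was not counted as a member.

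**Figure D2:**
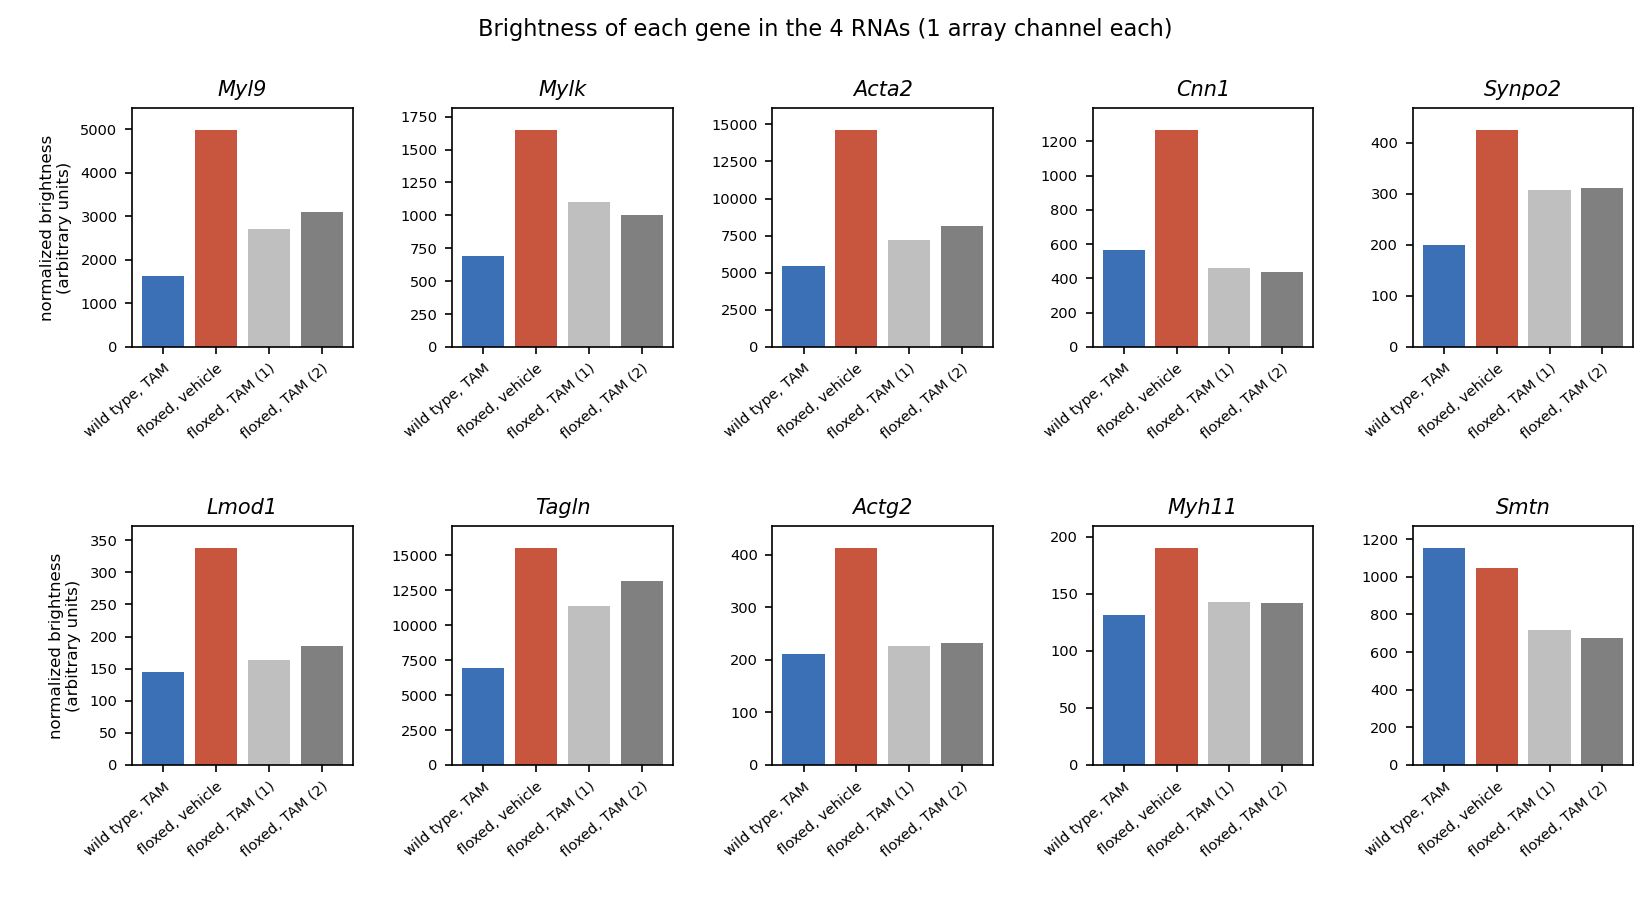
Normalized brightness (y axis, arbitrary units, from 0) of the brightest probe of each contractile gene in the 4 RNAs: wild type with TAM (blue), floxed with vehicle (red) and floxed with TAM on the genotype array (1, light grey) and the treatment array (2, dark grey). Each bar is 1 array channel, with no error bar. Vehicle-treated RNA is the highest bar in each gene but Smtn, in which wild-type RNA (1154) is highest.

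The same-dye channels were also set side by side across the arrays. The 2 Cy5 RNAs differed in mouse line, exposure to TAM and array at once, and these cannot be told apart. In the median of the members, the Sox9-deleted RNAs of the 2 arrays were closer to each other than the Sox9-expressing RNAs were. For the Sox9-deleted RNAs, the log2 difference of the treatment array minus the genotype array had a median of 0.03. It lay between -0.13 and 0.21, where the middle 90% of all genes lay between -0.20 and 0.15. Of the 10 members, 6 lay within that range of all genes. Tagln (0.21), Myl9 (0.20), Acta2 (0.17) and Lmod1 (0.17) lay above it, so they were brighter on the treatment array than in most genes. The Sox9-expressing RNAs were far apart: vehicle-treated floxed minus wild-type RNA had a median of 1.16 and a range from -0.14 (Smtn) to 1.61 (Myl9), against a median of -0.009 and a middle 90% between -0.35 and 0.58 over all genes. At least 2-fold brighter in vehicle-treated floxed than in wild-type RNA were 7 members, all but Actg2, Myh11 and Smtn, and 1.88% of all genes. For each probe, this Cy5 difference is the Cy3 difference plus the treatment minus genotype difference of the log2 ratios. It thus restates the difference between the comparisons and is no separate measurement of it. The summed brightness of the 10 members was 17143 in wild-type, 24424 and 27398 in Sox9-deleted and 40491 in vehicle-treated RNA.

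Probes that measured a member again mostly gave the same order of the comparisons. Of the 17 tested member probes, 16 had a higher log2 ratio in the treatment than in the genotype comparison, 14 were below 0 in the genotype and above 0 in the treatment comparison, and 3 were above 0 on both arrays. Over all genes, the treatment minus genotype difference had a median of 0.007. The same opposite directions were seen in 18.4% of all genes, and 33.8% were above 0 on both arrays. These are shares of genes by their brightest probe, not of probes. Probes of 1 gene share its RNA and are no independent replicates. Only 4 of the 10 genes had more than 1 probe.

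Most tested markers of skeletal muscle and of fibroblasts and mesenchyme had the same pattern. Of 12 skeletal muscle genes, 8 were tested. All 8 were lower in the genotype and higher in the treatment comparison, against 18.4% of all genes. The median difference between the arrays was 2.62. The summed brightness of the 8 tested genes was 1018 in wild-type RNA, 2684 and 2076 in Sox9-deleted RNA and 8334 in vehicle-treated RNA. Background is a large part of the wild-type sum, in which Myh3 (92.1) was near background. Myh3, embryonic myosin heavy chain, had log2 ratios of -0.17 and 2.60, and Myl1, a fast-muscle light chain, had -3.03 and 2.26. Myog, which drives muscle differentiation, had -0.92 and 1.06. Myod1 (-0.09 and 0.39) and Ckm (-0.10 and 0.28) were too dim to be tested. Both stood well above background in vehicle-treated RNA and in the Sox9-deleted RNA of the genotype array, but not in the other RNAs.

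Of 12 fibroblast and mesenchyme genes, 10 were lower in the genotype and higher in the treatment comparison, against 18.4% of all genes. Over the 12 genes the median difference between the arrays was 1.15. Their summed brightness was 45468 in wild-type, 69571 and 63003 in Sox9-deleted and 98816 in vehicle-treated RNA. The collagen genes Col1a1 (-1.26 and 1.03), Col1a2 (-0.84 and 1.07) and Col3a1 (-1.62 and 1.13) and the receptors Pdgfra (-0.72 and 0.47) and Pdgfrb (-0.66 and 0.50) had this pattern, as had vimentin (Vim, -0.40 and 0.38). Dcn, decorin, was lower on both arrays (-0.77 and -0.14), and Fn1, fibronectin, had 0.44 and -0.01. By summed brightness, wild-type RNA was the lowest and vehicle-treated floxed RNA the highest for these lists and for the contractile genes, while the Sox9-deleted RNA of the genotype array was above that of the treatment array for both lists and below it for the contractile genes. Their part in the result was not tested.

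**Figure D3:**
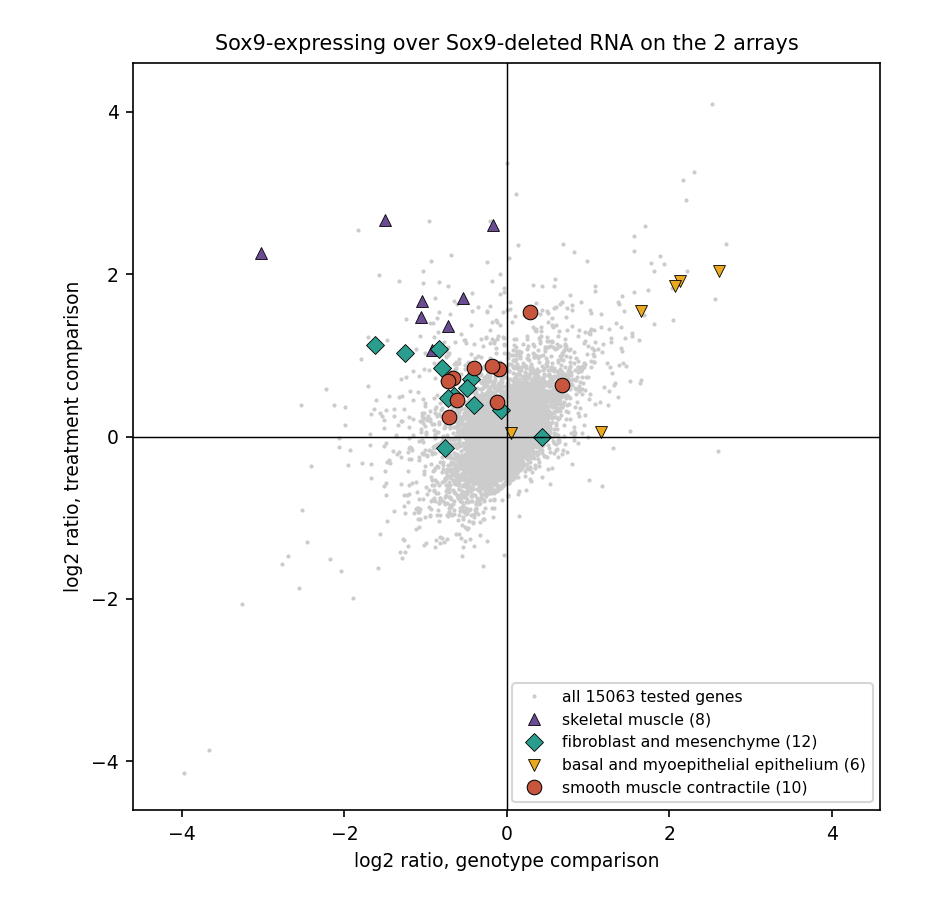
Log2 ratio in the genotype comparison (x axis) against the treatment comparison (y axis), Sox9-expressing over Sox9-deleted RNA, for all 15063 tested genes (grey), the contractile genes (red circles), skeletal muscle genes (purple triangles), fibroblast and mesenchyme genes (green diamonds) and basal epithelial genes (yellow triangles). The 8 skeletal muscle genes and 8 of the 10 contractile genes lie left of 0 and above 0, and 4 of the basal genes lie at the upper right.

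Epithelial markers did not have this pattern. Of the 6 tested basal and myoepithelial genes, a class that can itself use Acta2 and Cnn1, each of the 6 was above 0 on both arrays, and Krt5 (2.13 and 1.91), Krt14 (2.07 and 1.86), Trp63 (1.65 and 1.55) and Col17a1 (2.62 and 2.03) were at least 2-fold higher on each. Egfr was the lowest, at 0.05 and 0.04. The summed brightness of the 6 basal genes was 273400 and 224659 in wild-type and vehicle-treated RNA and 68351 and 68779 in the Sox9-deleted RNAs. It was thus higher in both Sox9-expressing RNAs, as were Smtn and Cnn1 among the contractile genes. Unlike this sum, Cnn1 was far brighter in vehicle-treated (1269) than in wild-type RNA (565). Of 7 general epithelial genes, 2 were higher on both arrays with Sox9 and 4 were lower, against 33.8% of all genes for each. Epcam was at 0.46 and 0.37, Cdh1 at -0.31 and -0.32, Krt8 at 0.01 and -0.74, Krt18 at -0.28 and -1.01 and Cldn4, the lowest, at -0.84 and -1.04.

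Some endothelial and immune markers were at background. Pecam1 and Ptprc were not well above background in any of the 4 RNAs, Kdr had log2 ratios of 0.08 and -0.10 and Cdh5 of -0.12 and -0.16. Csf1r had 0.03 and -0.12, and Cd68, a lysosomal protein of macrophages, had -0.69 and -0.77. Of the defining smooth muscle markers, Myh11, Smtn, Lmod1, Cnn1 and Acta2 are members and were measured in all RNAs, and Des, desmin, had -0.42 and 0.11.

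Further genes of light chain regulation and of the thin filament differed less between the arrays, with median differences of 0.02 and -0.08. Of 10 genes around light chain phosphorylation, 4 were higher on both arrays with Sox9 and 3 were lower. In the genotype comparison 2 were lower while higher in the treatment comparison, and 0 differed by 1 or more between the arrays. Over all genes, 33.8% were higher on both arrays, 33.8% were lower and 18.4% had those opposite directions. The treatment ratio was higher by at least 1 in 2.17% of all genes. The counts of this list were near these shares. Myl6, the essential light chain that pairs with the heavy chain, was the highest (0.40 and 0.40). Of 15 further thin filament and crosslinking genes, 5 had the members' opposite directions and 6 the reverse, against 18.4% and 14.0% of all genes. They ran from Tpm2 (0.30 and 0.46), a tropomyosin, to Cnn3 (-0.08 and -0.16), a calponin outside the set.

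Among 7 other actins and myosin heavy chains, the values varied. The largest mean was that of Actc1, cardiac actin (-0.12 and 1.41), and the lowest that of Myh14, a non-muscle myosin (-0.85 and -0.70). Acta1, skeletal actin, chosen after its values were seen, had -1.33 and 1.92, and with Actc1 it was 1 of the 2 genes of this list whose arrays differed by 1 or more. Of 10 tested genes of the smooth muscle membrane and intermediate filaments, 6 were lower in the genotype and higher in the treatment comparison, against 18.4% of all genes. None differed by 1 or more, where 2.17% of all genes were higher by at least 1 in the treatment comparison. Cav1, caveolin 1, was highest (0.43 and 0.51) and Des lowest.

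The tested regulators differed little between the arrays. Srf, the factor that binds the CArG box, had 0.39 and 0.32, averaging 0.36 ± 0.05 (SD, n = 2), with an adjusted p of 0.179 by limma. Its coactivators Mrtfa (0.16 and -0.05) and Mrtfb (0.08 and 0.09) and the factor Tead1 (0.01 and 0.15) were near 0. Myocd (-0.05 and 0.16), Mef2c (-0.01 and 0.49) and Tbx18 (-0.01 and 0.04) were too dim to be tested, and Foxf1 was not analysed here. Of the lists described, 0 genes passed an adjusted p under 0.05 by limma, and at least a 2-fold difference on both arrays was seen in the 4 basal genes alone.

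**Figure D4:**
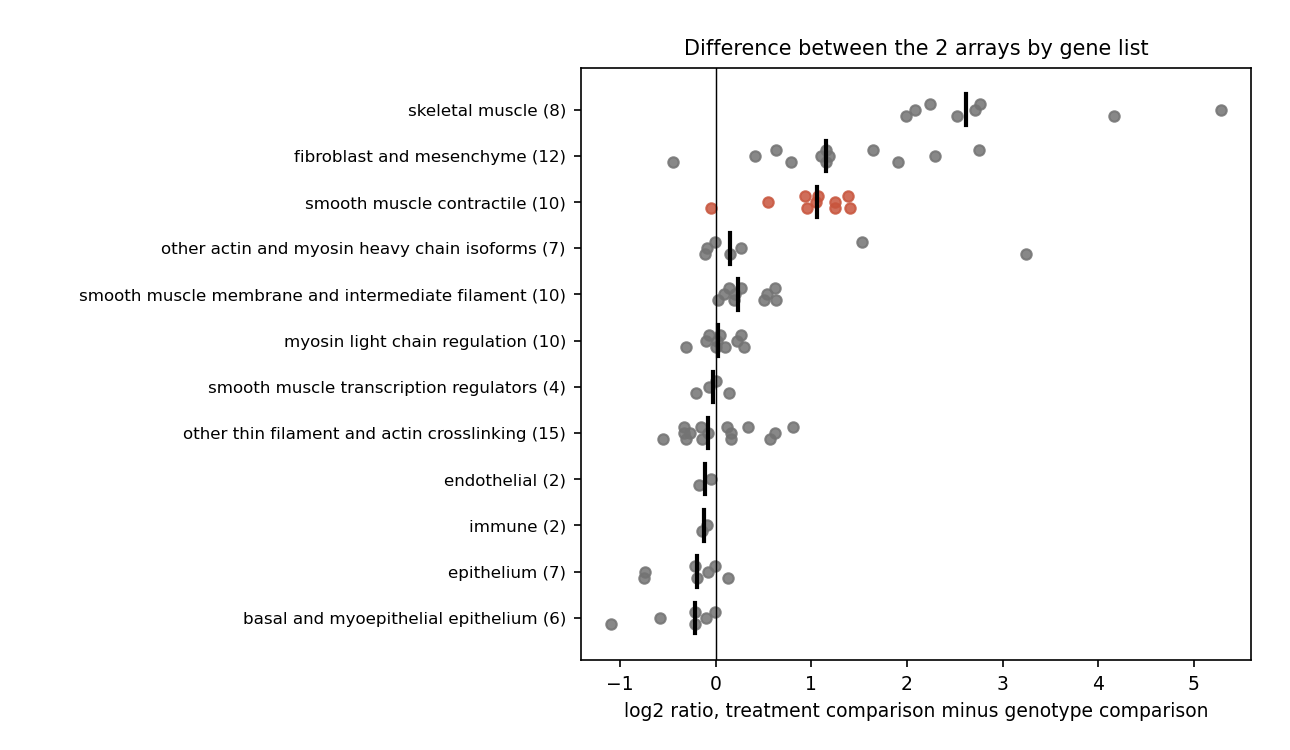
Log2 ratio of the treatment comparison minus that of the genotype comparison (x axis) for each tested gene (points) of each list (y axis, number of tested genes in parentheses), with the median as a bar. The contractile genes (red, median 1.06) and the fibroblast genes (1.15) lie to the right of 0, the skeletal muscle genes (2.62) farther right, and the basal genes (-0.22) to the left.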

How the data were processed

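Gene expression was measured on 2 two-colour Agilent arrays (4 RNAs, 1 per channel), assigned from the titles, genotypes, treatments and dyes of the labels. Both RNAs of the treatment comparison carry 1 genotype label, so they were told apart by treatment, and the source names, which would turn every sign if read as the deleted gene, were not used. The authors' scanner software (Agilent Feature Extraction 10.5.1.1, per the file headers) gave the deposited mean and local background intensity of each spot, not normalized, processed intensity values after background subtraction and dye normalization, and their log10 ratio. The authors also deposited their own log2 ratios, Cy5 over Cy3, whose processing steps and centring are not given in the sources used here. The submitters' processing notes name limma.

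Intensities were corrected with normexp (offset 50) and loess in limma 3.58.1 (R 4.3.3, and data.table, version 1.17.8), with 1639 of 45018 spots left out as controls and 126 and 130 as outliers. Spots of a probe were averaged. Probes well above background in most spots, in Cy5 on both arrays or Cy3 on both, were tested (22731) with lmFit and eBayes, 2-sided, with 1 residual degree of freedom and a prior SD of 0.119. Brightness was read after Aquantile normalization between arrays. Sequences and figures used Python 3.11.15, pandas 2.3.3 and matplotlib 3.10.9. The code was tested on simulated ratios. The number of arrays limits the precision, and 0 spots were saturated.

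Named are all members with all their probes, the Sox9 probes, every regulator, the highest and lowest mean of each list, and the defining cell type markers. Also named are list genes at least 2-fold different in the same direction on both arrays or past the adjusted p. The lowest gene of the light chain list is not reported here. The members, lists and tests were chosen with earlier results of these data known. The alternatives were another offset, no background subtraction, median centring, scaling, the software's processed signals, the authors' table, other filters, all probes of a gene, the methods' t-test and leaving out each array. The counts of opposite directions and the differences between arrays were added after seeing the data.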

Additional observations from a re-analysis of the deposited data

Results flagged for a closer look

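For 8 contractile genes the log2 ratio was below 0 in the genotype comparison and above 0 in the treatment comparison, each 1 array, and the difference between the comparisons was not tested. The treatment minus the genotype log2 ratio was 1.40 for Myl9, 1.39 for Mylk, 1.25 for Acta2, 1.07 for Synpo2, 1.05 for Lmod1, 0.95 for Tagln, 0.93 for Actg2 and 0.55 for Myh11. The same opposite directions were seen, also untested, in 8 of 8 tested skeletal muscle genes and in 10 of 12 fibroblast and mesenchyme genes. Over all genes, 18.4% had these opposite directions.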

How the results depend on the processing

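The 8 contractile genes with opposite directions on the arrays were 8, and the members higher on both arrays 2, under each of 9 alternative ways of processing; the treatment minus genotype difference was above 0 in all 9 for each member but Smtn, which was above 0 only with median centring (0.44). Median centring in place of loess moves the median of all probes in the treatment comparison to 0.38. With it, 522 probes were called over all tested probes (2 with loess), the median log2 ratio of the members was 0.44 (0.19 as reported) and their median difference between arrays 1.53 (1.06 as reported), and Tagln (0.22), Myl9 (0.34) and Synpo2 (0.16) turned in sign. That difference was 1.23 with an offset of 10, 1.25 without background subtraction, 1.22 on the software's processed signals, 1.27 on the authors' values and 0.907 with all probes of a gene averaged. Mylk turned to -0.02 without background subtraction and on the software's processed signals (-0.0179 and -0.0198), to -0.20 with the arrays scaled to 1 spread and to -0.0355 on the authors' values. Scaling gave a median log2 ratio of 0.0522. The probes called were 0 with an offset of 10, without background subtraction, with scaling and on the processed signals, where 3515, 4329, 3436 and 3694 passed an unadjusted limma p under 0.05, and 68 on the authors' values. The methods' t-test called 0 after Benjamini-Hochberg and 1925 before. Probes at least 2-fold different in the same direction on both arrays were 95 as processed here, 148 without background subtraction, 600 on the processed signals and 147 on the authors' values. With 1 array left out, such probes numbered 298 to 382, members higher 2 to 10 and members lower 0 to 8, and the members' median log2 ratio was -0.29 to 0.70: without the treatment comparison 8 were lower, and without the genotype comparison 10 were higher. The cause was not tested. Each log2 ratio pairs the 2 RNAs of 1 array, and with 1 array per comparison neither comparison could be tested alone. The ratios of the dim genes Actg2, Lmod1, Myh11 and Synpo2 are understated.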
